A study of Mus musculus with 6 samples.

Results

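The transcripts described here are those of 32 genes that mark the main classes of neural cell, read in brain macrophages sorted by their surface proteins. Members were chosen by gene symbol: 13 neuron genes, 10 astrocyte genes and 9 oligodendrocyte genes. All 32 were found among the 35598 genes of each table. The cells were CNS-associated macrophages (CAMs), which line the perivascular spaces, the meninges and the choroid plexus. They came from brains of male C57BL/6 mice, for which the labels name no genetic change and no treatment, and the sort took cells with CD11b, CD45 and CD206 and without CD3. The aged group was 18 months old (3 libraries) and the young group 2 months old (3 libraries). No label says whether a library held 1 animal or several, or whether the libraries of a group were separate animals, so the p-values measure only the spread between these libraries, and that spread may be technical.

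Neurons signal at synapses, astrocytes clear transmitter and move water and ions, and oligodendrocytes wrap axons in myelin; none of them is known to carry the surface proteins of the gate. Brain macrophages are known to engulf synapses, myelin debris and dying cells. Some of the member genes are also transcribed outside neural cells: for example, Clu is broadly expressed, and the Mbp locus gives Golli transcripts in immune cells. Whether the other members, Meg3 and Slc1a3 among them, were read from cells outside these classes was not tested. In bulk libraries such as these, fewer cells of a type and less RNA per cell cannot be told apart, and the cell that made a read is not known.

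The libraries held 30044347 to 32902649 counts in the aged group and 26605077 to 33306093 in the young group. Levels are given in CPM (read counts scaled to a common library total), on which scale 1 count was worth 0.0300 CPM in the deepest library and 0.0376 CPM in the shallowest. The gate gene Mrc1, which encodes CD206, was at 2206, 1387 and 1230 CPM in the aged libraries, against 2598, 2969 and 2642 CPM in the young ones. A list of 11 border macrophage genes summed to 9150 to 15652 CPM in aged and 23714 to 27654 CPM in young libraries. A list of 11 microglia genes summed to 10377 to 21495 CPM in aged and 5879 to 8278 CPM in young libraries, so that both lists separated the groups, in opposite directions. Choroid plexus genes (11) summed to 7707 CPM in aged replicate 3 and 11754 CPM in young replicate 3, and to 671 to 1295 CPM in the other libraries. Aged replicate 3 also stood apart in blood transcripts: 9 neutrophil genes summed to 4.16 CPM there and to 9347 to 35357 CPM elsewhere. A list of 7 ependymal genes summed to 7.97, 13.3 and 83.2 CPM in aged and 0.06, 9.28 and 43.7 CPM in young libraries; its members Ccdc153, Tmem212 and Rsph1 had 0 counts in all 6 libraries, while Tppp3 reached 55.9 CPM in aged replicate 3. A list of 10 mural and fibroblast genes summed to 0.36 to 5.08 CPM in aged and 2.01 to 14.1 CPM in young libraries, with Pdgfrb and Kcnj8 at 0 throughout. The part of these other cell types in the results below was not tested.

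Neural transcripts were sparse and uneven. Of the 192 values (32 genes in 6 libraries), 47 were 0, another 26 were 1 to 3 counts, and 37 reached 10 CPM. The oligodendrocyte genes Opalin and Ermn had no count in any library, which allows a level of up to 0.0901 to 0.113 CPM (3 counts per library, for counting error only, since PCR copies are not independent molecules). At least 4 counts in every library were found for 8 genes, of which 2 were neuron, 4 astrocyte and 2 oligodendrocyte genes. The summed neuron level was 19.6, 12.7 and 24.7 CPM in the aged libraries, against 61.6, 125 and 41.6 CPM in the young libraries. Astrocyte genes summed to 118, 120 and 289 CPM in aged libraries and 73.0, 70.2 and 109 CPM in young ones. Oligodendrocyte genes summed to 47.4, 114 and 358 CPM in aged libraries and 85.9, 49.3 and 41.4 CPM in young ones. On the CPM scale the aged and young neuron sums did not overlap, with aged lower, and neither did the astrocyte sums, with aged higher. The oligodendrocyte sums overlapped. On summed TPM the groups overlapped in each class, so both separations depended on the scale. The means were 19.0 ± 5.99 CPM in aged and 75.9 ± 43.3 CPM in young libraries for neuron genes (SD, n = 3 each), a log2 ratio of -1.999, which was -0.71 on summed TPM. For astrocyte genes they were 176 ± 98.1 CPM in aged and 84.1 ± 21.7 CPM in young libraries.

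**Figure D1:**
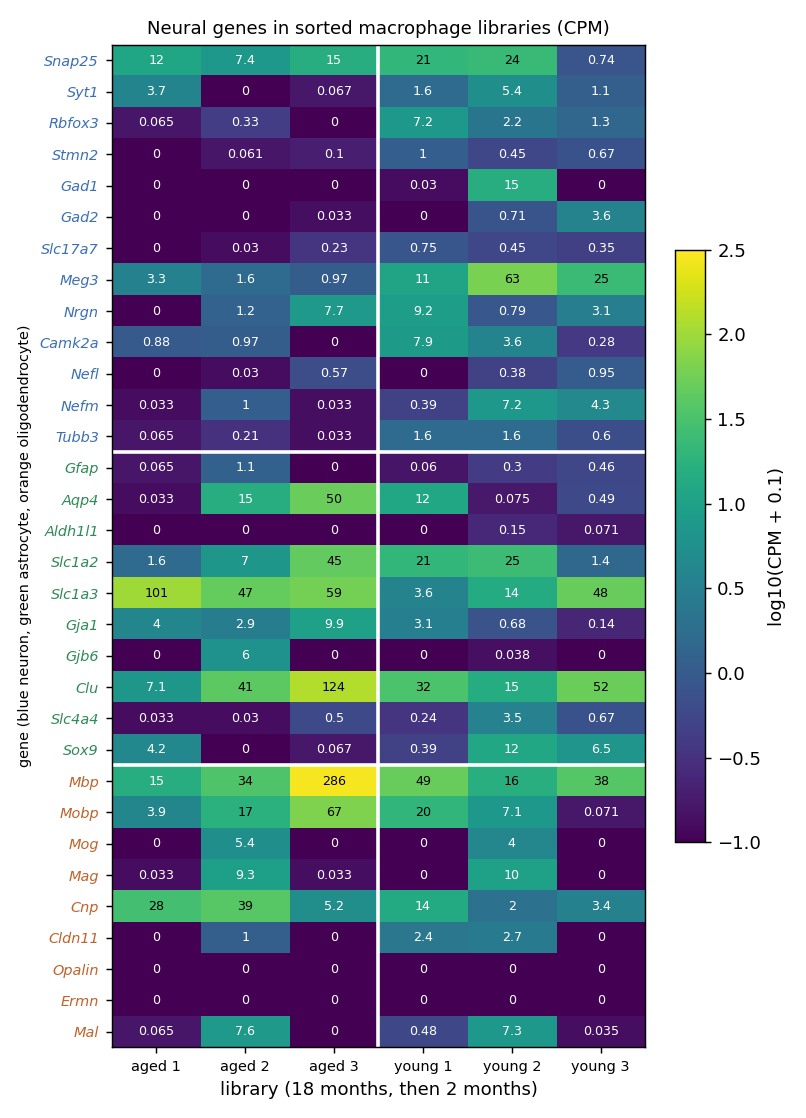
Level in CPM of each of the 32 genes (rows, by class) in the 3 aged and 3 young libraries (columns); colour is log10(CPM + 0.1) and the number in each cell is the CPM, rounded. The 5 neuron genes with no overlap between groups (Meg3, Rbfox3, Stmn2, Slc17a7 and Tubb3) are darker in all 3 aged columns, and Opalin and Ermn are 0 throughout.

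On the CPM scale, too, both separations rested on 1 gene each. Without Meg3, the other 12 neuron genes summed to 16.3, 11.2 and 23.7 CPM in aged libraries and 50.5, 61.5 and 17.0 CPM in young ones, and the groups overlapped. Without Slc1a3, the other 9 astrocyte genes summed to 17.0, 72.9 and 230 CPM in aged libraries and 69.4, 56.1 and 61.3 CPM in young ones, again overlapping. Mbp gave 79.9% of the oligodendrocyte sum in aged replicate 3 and 91.5% in young replicate 3.

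**Figure D2:**
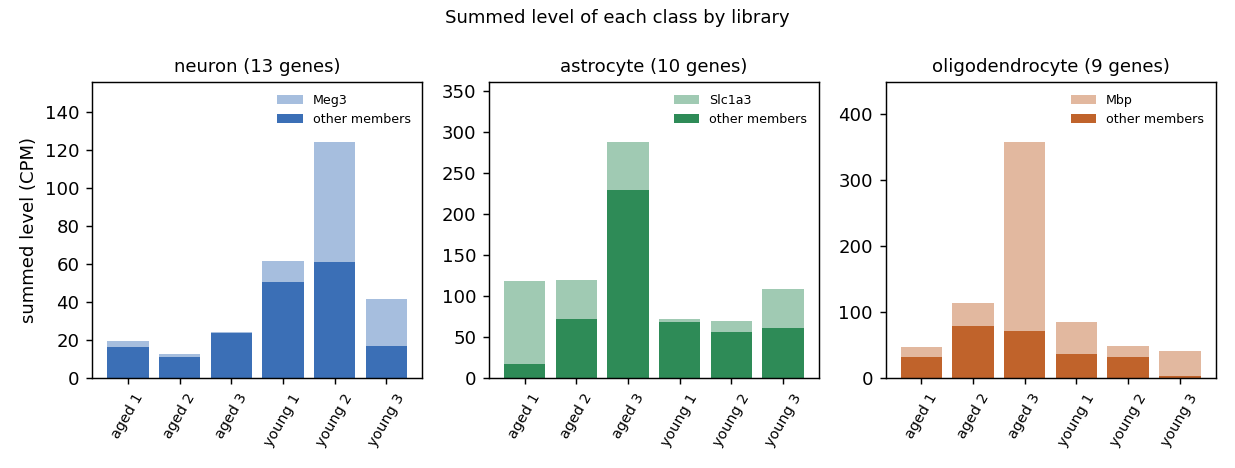
Summed CPM of each class (one panel per class, bars from 0) in the aged and young libraries, with the gene that has the most reads in the class in the pale part and the other members in the dark part. The neuron bars of the aged libraries reach 12.7 to 24.7 CPM and those of the young libraries 41.6 to 125 CPM, and aged replicate 3 carries the highest astrocyte and oligodendrocyte bars.

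The age comparison asked how the transcripts differ between 18 and 2 months. It was fitted over all genes with edgeR's quasi-likelihood test, and 23 members passed the filter on low counts: 11 neuron, 7 astrocyte and 5 oligodendrocyte genes. None of the 23 was called at an adjusted p under 0.05 (smallest adjusted p = 0.619, for Meg3), where the background was 0.00938% of the 10661 genes tested. At an unadjusted p under 0.05, 4 members were lower (Meg3, Tubb3, Stmn2 and Rbfox3), where 2.04% of all genes tested were lower, and 0 were higher, against 3.63% of all genes. The DESeq2 Wald test called 1 member lower, Meg3, and 0 higher, against 0.385% of genes lower and 1.10% higher; it gave no adjusted p for 6 members. Standard errors of the log2 fold changes (aged minus young) were 0.89 to 2.47, and in 8 of the 23 members the standard error exceeded the fold change itself. Stmn2, Slc17a7 and Tubb3 reached the filter's 0.330 CPM in the young libraries only, so their difference was in part set by the filter.

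Neuron genes had lower mean levels in aged than in young libraries for 13 of 13 members, where 48.6% of all genes tested had a lower aged mean. The fitted value was below 0 for 11 of 11 tested members, where 50.7% of all genes tested were. Their median log2 fold change was -2.80, beside -0.02 over all genes tested. On the TPM scale (values scaled for transcript length and library) the aged mean was lower for 12 of 13, Nrgn being the exception. Groups did not overlap for 5 members, all with aged lower, where 6.84% of the genes tested did so in that direction and 7.78% in the other; among genes with a mean under 10 CPM the shares were 7.16% with aged lower and 5.58% with aged higher. Stmn2, Slc17a7 and Tubb3, which passed the filter through the young libraries only, are 3 of these 5 and 3 of the 11 fitted members. They are also among the 13, with Gad1 and Gad2, which did not pass the filter and were read almost only in young libraries. None of these counts, nor the median, is therefore read against the share over all genes.

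Meg3, an imprinted long non-coding RNA that stays largely in the nucleus, had the most reads of the neuron genes. The gene (ENSMUSG00000021268.17, mm10 chromosome 12, 109541001 to 109571726) was at 3.30, 1.58 and 0.97 CPM in the aged libraries, against 11.1, 63.1 and 24.6 CPM in the young ones. Each aged library lay under each young one, and the young libraries spread over a wider range than the gap, with means of 1.95 ± 1.21 CPM in aged and 32.9 ± 27.0 CPM in young libraries (SD, n = 3 each). The log2 fold change was -4.07 (SE 1.23, edgeR adjusted p = 0.619). The DESeq2 Wald test gave an adjusted p = 0.00623, with a range of 0.00623 to 0.952 over the settings tried. In 16 of 16 settings the fitted value was below 0, from -4.79 to -1.01.

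Among the neuron genes, Snap25 had the highest mean TPM. It encodes a membrane protein that drives fusion of transmitter vesicles (ENSMUSG00000027273.13, mm10 chromosome 2, 136713453 to 136782428). Its level was 11.5, 7.36 and 14.9 CPM in aged libraries and 20.8, 23.7 and 0.74 CPM in young ones. The lowest value was a young one, and the groups overlapped (log2 fold change -0.43, SE 1.37, edgeR adjusted p = 0.997). The direction was not stable, with 0.41 in limma-voom. Nrgn, a postsynaptic calmodulin-binding protein gene (ENSMUSG00000053310.11, mm10 chromosome 9, 37544492 to 37552904), was at 0, 1.15 and 7.72 CPM in aged libraries and 9.16, 0.79 and 3.07 CPM in young ones, also overlapping. Syt1, the calcium sensor of vesicle release, was at 3.69, 0 and 0.07 CPM in aged libraries and 1.56, 5.37 and 1.06 CPM in young ones. Camk2a, a kinase of excitatory synapses, was at 0.88, 0.97 and 0 CPM in aged and 7.93, 3.65 and 0.28 CPM in young libraries.

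The other 4 genes without overlap were all low. Rbfox3 encodes NeuN, a splicing factor used as a marker of neuronal nuclei; it had 2, 11 and 0 counts in the aged libraries, against 241, 59 and 38 counts in the young ones (log2 fold change -4.93, SE 2.11, edgeR adjusted p = 0.855). Tubb3, a neuronal tubulin gene, had 2, 7 and 1 counts in aged and 53, 42 and 17 counts in young libraries (log2 fold change -3.69, SE 1.42, edgeR adjusted p = 0.795). Another annotated gene, Gm20388, overlaps Tubb3 on the same strand and averaged 11.4 CPM in aged and 2.52 CPM in young libraries. Tubb3 itself averaged 0.10 CPM in aged and 1.26 CPM in young libraries, the opposite direction, so the reads of Tubb3 are uncertain. Stmn2, which regulates axonal microtubules, had 0, 2 and 3 counts in aged and 34, 12 and 19 counts in young libraries (log2 fold change -3.71, SE 1.46, edgeR adjusted p = 0.797). Slc17a7, the vesicular glutamate transporter of cortical excitatory neurons, had 0, 1 and 7 counts in aged and 25, 12 and 10 counts in young libraries (log2 fold change -2.52, SE 1.49, edgeR adjusted p = 0.939). For each of these 4 the highest aged value lay under the lowest young value; the nearest libraries of the 2 ages held 11 and 38 counts for Rbfox3, 7 and 17 for Tubb3, 3 and 12 for Stmn2, and 7 and 10 for Slc17a7.

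The enzymes of inhibitory transmission were read almost entirely in single libraries. Gad1, which makes GABA, had 0, 0 and 0 counts in aged libraries and 1, 398 and 0 counts in young ones, so that young replicate 2 held 99.8% of its summed CPM. Gad2, its paralogue at axon terminals, had 0, 0 and 1 counts in aged and 0, 19 and 102 counts in young libraries. The library with nearly all Gad1 reads was therefore not the one with most Gad2 reads. The neurofilament genes Nefl and Nefm lie on opposite strands and overlap; whether the counting used strand is not given in the sources used here, so their reads are uncertain where they overlap. Nefm was at 0.03, 1.00 and 0.03 CPM in aged and 0.39, 7.18 and 4.35 CPM in young libraries, and Nefl did not exceed 0.95 CPM in any library.

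The 250 bases before the start site are shown for the neuron genes Meg3, Rbfox3 and Slc17a7, since these had the same direction in every library pair of the 2 ages. They are RefSeq windows of build GRCm38.p6, written 5′ to 3′ on the gene's strand, and capitals mark matches, on either strand, to 5 motifs. The first is the core promoter box spelled TATAAA. The second, spelled CCAAT, and the third, the GC-rich Sp1 box spelled GGGCGG, are common promoter elements. The last pair are the left part of the REST element, spelled TTCAGCACC, with its right part, spelled GGACAGC. REST is a repressor that silences neuronal genes outside neurons. The Meg3 window is chr12:109540746-109540995 on the plus strand and that of Slc17a7 is chr7:45163671-45163920 on the plus strand. The Rbfox3 window, chr11:118761042-118761291 on the minus strand, lies inside the annotated gene and holds no exon.
Meg3: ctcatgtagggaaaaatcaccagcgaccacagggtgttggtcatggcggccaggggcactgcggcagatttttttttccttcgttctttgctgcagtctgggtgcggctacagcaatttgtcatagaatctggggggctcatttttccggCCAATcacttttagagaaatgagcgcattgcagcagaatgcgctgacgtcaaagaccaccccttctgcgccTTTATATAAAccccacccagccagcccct
Rbfox3: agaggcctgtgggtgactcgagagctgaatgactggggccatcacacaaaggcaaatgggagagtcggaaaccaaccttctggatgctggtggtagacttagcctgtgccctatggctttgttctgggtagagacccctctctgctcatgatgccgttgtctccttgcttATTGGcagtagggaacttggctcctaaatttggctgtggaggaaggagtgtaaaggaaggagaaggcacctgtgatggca
Slc17a7: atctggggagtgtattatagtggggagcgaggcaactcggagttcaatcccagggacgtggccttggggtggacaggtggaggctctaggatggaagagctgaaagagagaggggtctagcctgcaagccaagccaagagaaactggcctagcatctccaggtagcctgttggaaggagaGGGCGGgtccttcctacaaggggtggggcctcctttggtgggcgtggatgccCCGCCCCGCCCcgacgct
The Meg3 window held TATAAA on both strands, in overlapping positions 29 to 20 bases before the start, and CCAAT on its own strand. Of 32851 RefSeq windows of this length, 12.4% held TATAAA and 33.8% CCAAT. Slc17a7 held GGGCGG in 3 places, 2 of them overlapping by a base, a motif found in 32.7% of windows, and Rbfox3 held CCAAT on the opposite strand. TTCAGCACC (0.301% of windows) and GGACAGC (5.28%) were not in the letters of these 3 windows. A match of letters is a description and not a bound site.

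**Figure D3:**
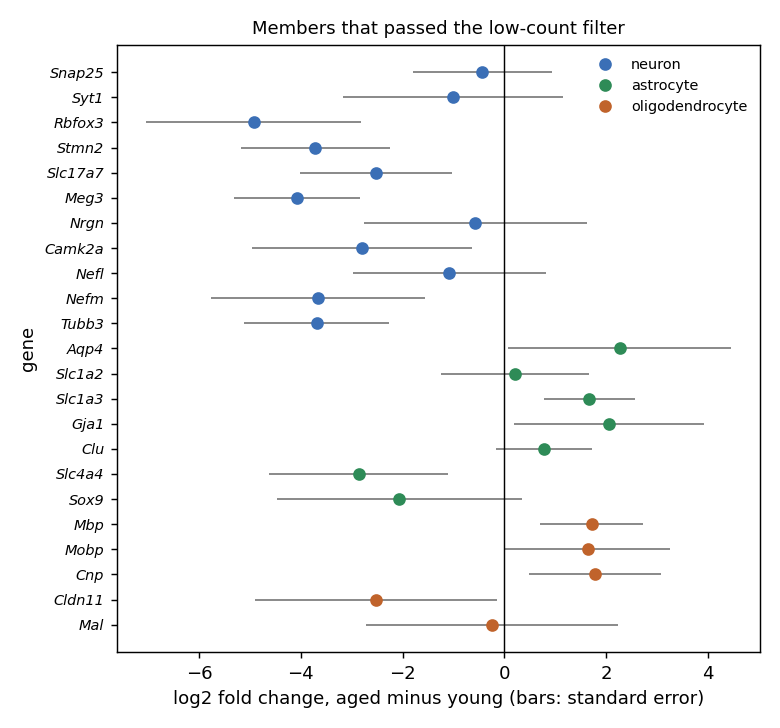
Log2 fold change, aged minus young, of the 23 members that passed the low-count filter, from edgeR's quasi-likelihood fit over 10661 genes; horizontal bars are standard errors. All 11 neuron points lie below 0 and the astrocyte and oligodendrocyte points lie on both sides, with 0 members called.

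Astrocyte genes did not share a direction. The aged mean was higher for 7 of 10 members and lower for 3 on the CPM scale, and 0 of 10 had groups without overlap. Over all genes tested, 48.6% had a lower aged mean, and the groups did not overlap for 6.84% with aged lower and 7.78% with aged higher. Gfap, Aldh1l1 and Gjb6 did not pass the filter. Slc1a3 encodes GLAST, a glutamate transporter (ENSMUSG00000005360.14, mm10 chromosome 15, 8634124 to 8710764). It was at 101.3, 46.9 and 59.0 CPM in aged libraries, against 3.57, 14.1 and 47.8 CPM in young ones. Aged replicate 2 and young replicate 3 were within 1 CPM of each other, and the remaining young libraries lay well below. The log2 fold change was 1.67 (SE 0.89, edgeR adjusted p = 0.929).

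Slc1a2 encodes GLT-1, the main glutamate transporter of adult astrocytes (ENSMUSG00000005089.15, mm10 chromosome 2, 102658659 to 102790784). Its level was 1.57, 6.99 and 45.3 CPM in aged libraries and 20.9, 24.6 and 1.38 CPM in young ones. High and low libraries occurred in both groups (log2 fold change 0.21, SE 1.45, edgeR adjusted p = 0.997). When aged replicate 3 was left out, the fitted value was -2.07. Clu, which encodes the secreted chaperone clusterin (ENSMUSG00000022037.15, mm10 chromosome 14, 65968483 to 65981547), was at 7.12, 40.9 and 124 CPM in aged libraries and 32.4, 14.8 and 51.6 CPM in young ones. Its fitted value changed sign, too, when aged replicate 3 was left out (0.78 with it, SE 0.95, edgeR adjusted p = 0.993; -0.67 without it). Aqp4, the water channel of astrocyte endfeet (ENSMUSG00000024411.11, mm10 chromosome 18, 15389496 to 15410982), was at 0.03, 14.9 and 50.03 CPM in aged libraries and 12.3, 0.08 and 0.49 CPM in young ones. Its 3 highest libraries, from both groups, held 489, 1503 and 409 counts, while the lowest held 1 (log2 fold change 2.27, SE 2.19, edgeR adjusted p = 0.993).

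Glutamate transporters and Aqp4 did not keep a common ratio between libraries. For each 100 reads of Slc1a3 there were 1.55, 14.9 and 76.7 reads of Slc1a2 in the aged libraries, and 585, 174 and 2.88 in the young ones. Aqp4 gave 0.0323, 31.7 and 84.8 reads per 100 of Slc1a3 in aged libraries, against 344, 0.532 and 1.04 in young libraries. These ratios were chosen for mention after the values were seen.

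The other astrocyte genes had fewer reads. Gfap, the intermediate filament of astrocytes, had 2, 37 and 0 counts in aged and 2, 8 and 13 counts in young libraries. Aldh1l1, a folate enzyme used as an astrocyte marker, had 0 counts in every aged library and 0, 4 and 2 counts in the young ones. The gap junction genes Gja1 (connexin 43) and Gjb6 (connexin 30) differed in how they were spread. Gja1 was found in all libraries, at 3.99, 2.89 and 9.92 CPM in aged and 3.12, 0.68 and 0.14 CPM in young ones (log2 fold change 2.05, SE 1.86, edgeR adjusted p = 0.993). Gjb6 had 199 counts in aged replicate 2, 1 count in young replicate 2 and 0 in the other libraries. Sox9, a transcription factor of astrocytes and of other epithelial and glial cells, was at 4.18, 0 and 0.07 CPM in aged and 0.39, 11.99 and 6.54 CPM in young libraries. Slc4a4, a bicarbonate transporter gene, did not exceed 3.46 CPM.

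Myelin genes differed in how they were spread over the libraries. Mbp, Mobp and Cnp had reads in every library, though Mobp had only 2 in young replicate 3. Mag, Mog and Mal were read mainly in a pair of libraries, Cldn11 in 3, and Opalin and Ermn in none. Mbp, which encodes myelin basic protein (ENSMUSG00000041607.17, mm10 chromosome 18, 82475146 to 82585637), had the highest mean TPM of the 32 genes. It was at 15.1, 34.1 and 286 CPM in aged libraries, against 48.9, 16.2 and 37.9 CPM in young ones. Aged replicate 3 stood above all others and of the other aged libraries replicate 2 lay within the young range and replicate 1 just under it (log2 fold change 1.71, SE 1.01, edgeR adjusted p = 0.939). Without aged replicate 3 the fitted value was -0.65.

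Mobp, a further structural gene of compact myelin (ENSMUSG00000032517.16, mm10 chromosome 9, 120149707 to 120181484), was at 3.89, 17.1 and 66.8 CPM in aged libraries and 20.3, 7.14 and 0.07 CPM in young ones. It too was highest in aged replicate 3, and its fitted value of 1.64 (SE 1.62, edgeR adjusted p = 0.993) was -0.03 when that library was left out. Cnp, an enzyme gene of myelin-forming cells (ENSMUSG00000006782.16, mm10 chromosome 11, 100574904 to 100591729), was at 28.3, 39.5 and 5.23 CPM in aged libraries and 13.8, 1.95 and 3.39 CPM in young ones. Here aged replicates 1 and 2 were the high libraries and aged replicate 3 lay inside the young range (log2 fold change 1.78, SE 1.296, edgeR adjusted p = 0.983). Cnp overlaps Dnajc7, a chaperone gene on the opposite strand that averaged 80.3 CPM in aged and 23.7 CPM in young libraries, so the reads of Cnp are uncertain.

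The myelin surface genes were read in aged replicate 2 and young replicate 2 and hardly elsewhere. Mag, a glycoprotein of the inner myelin layer that binds axons, had 1, 305 and 1 counts in aged libraries and 0, 266 and 0 counts in young ones. Mog, on the outer face of myelin, had 0, 177 and 0 counts in aged and 0, 107 and 0 counts in young libraries. Mal, a membrane sorting protein gene, had 2, 249 and 0 counts in aged and 16, 193 and 1 counts in young libraries. Cldn11, the tight junction gene of myelin, had 0, 34 and 0 counts in aged and 79, 71 and 0 counts in young libraries, which adds young replicate 1. Same-numbered libraries did not vary together over the genes tested, a check that cannot decide the matter for a few genes. Whether aged replicate 2 and young replicate 2 share more than a number was not tested.

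**Figure D4:**
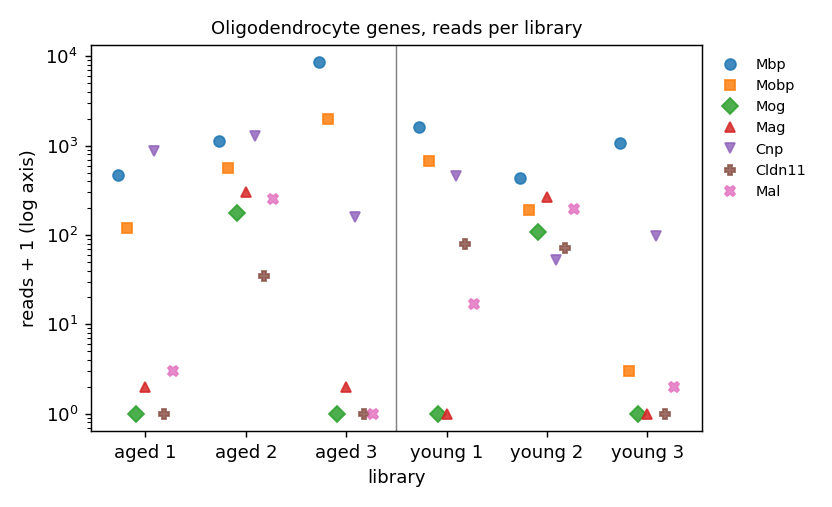
Reads plus 1 (log axis) of the 7 oligodendrocyte genes with any read, in the 3 aged and 3 young libraries; each symbol is a gene. Mag, Mog and Mal stand above 100 reads in aged replicate 2 and young replicate 2 and at 16 reads or fewer in the other libraries, while Mbp has 432 reads or more in every library.

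Reads of these genes did not follow those of Mbp. Per 100 reads of Mbp, Mag gave 0.216, 27.2 and 0.0116 reads in the aged libraries and 0, 61.6 and 0 reads in the young ones. Aged replicate 3, with 8603 reads of Mbp and 2006 of Mobp, held 1 read of Mag and 0 of Mog, Mal and Cldn11. Mobp was closer to a fixed ratio, at 25.7, 50.3 and 23.3 reads per 100 of Mbp in aged libraries and 41.5, 44.0 and 0.187 in young ones, young replicate 3 being the exception. These ratios were likewise picked with the values in view.

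The upstream windows of Mog and Mal are shown because these genes shared their pair of libraries. Both are RefSeq windows of GRCm38.p6 with the same marking, Mog at chr17:37023399-37023648 and Mal at chr2:127656696-127656945, each on the minus strand and outside any annotated gene.
Mog: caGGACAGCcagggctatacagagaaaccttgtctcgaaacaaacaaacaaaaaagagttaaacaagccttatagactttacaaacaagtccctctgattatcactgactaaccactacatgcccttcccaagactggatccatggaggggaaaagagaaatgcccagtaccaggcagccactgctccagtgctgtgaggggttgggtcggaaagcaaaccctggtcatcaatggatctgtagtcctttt
Mal: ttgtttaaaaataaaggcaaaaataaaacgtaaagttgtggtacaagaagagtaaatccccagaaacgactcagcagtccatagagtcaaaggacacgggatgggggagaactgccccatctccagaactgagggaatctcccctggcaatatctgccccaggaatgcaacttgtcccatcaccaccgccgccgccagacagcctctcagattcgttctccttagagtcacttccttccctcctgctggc
Mog held GGACAGC near the far end of its window, on its own strand, and the Mal window held none of the 5 motifs. The windows of Mag and Tubb3 hold annotated exons and are not printed.

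Single libraries carried much of the signal of many members. For members that passed the filter, this was near the values for genes tested with a mean under 10 CPM. For the 30 genes with any read, the median share of the summed CPM found in the highest library was 51.7%, where an even spread would give 16.7%. Among the 23 members that passed the filter the median was 47.8%, beside 36.6% over all genes tested and 46.8% over genes tested with a mean under 10 CPM. Over 50% of the signal lay in 1 library for 9 of these 23, where the background was 22% of the genes tested and 42.2% of those under 10 CPM. Over 80% lay in 1 library for Gad1, Gad2 and Gjb6, none of which passed the filter, and for 1.75% of the genes tested. Of the 30 genes, 10 were highest in young replicate 2, 6 each in aged replicate 3 and young replicate 1, 5 in aged replicate 2, 2 in young replicate 3 and 1 in aged replicate 1. All 13 neuron genes had their highest value in a young library.

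**Figure D5:**
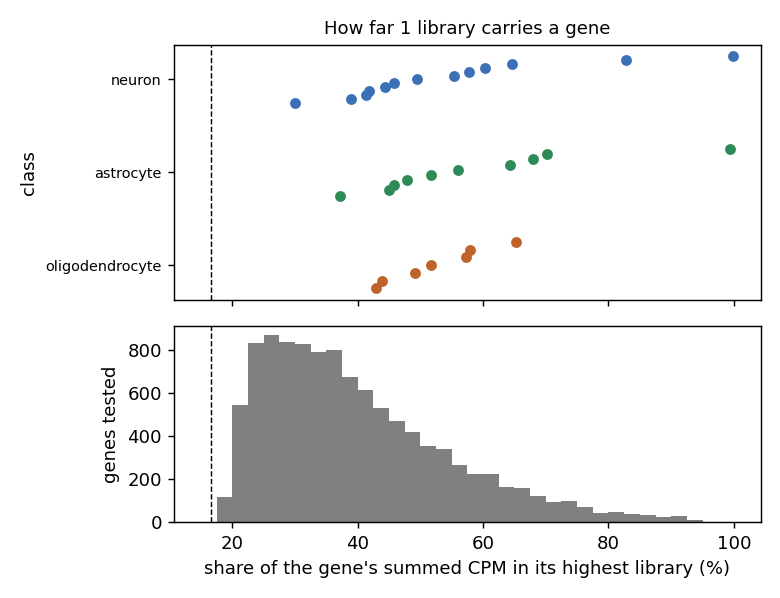
Top, share of a gene's summed CPM (%) that lies in its highest library, for the members of each class with any read; bottom, the same for the 10661 genes tested (number of genes per bin). The dashed line marks an even spread of 16.7%; Gad1 and Gjb6 lie near 100% and Snap25 is the lowest neuron point.

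Per transcript length, the order of the members differed from that in CPM. The highest mean TPM over the 6 libraries was that of Mbp (19.1), followed by Clu (15.6), Slc1a3 (7.19) and Gja1 (4.69), and the highest neuron gene was Snap25 (3.04). Mrc1 averaged 259 TPM in aged and 468 TPM in young libraries, and the microglia receptor gene P2ry12 averaged 1064 TPM in aged and 273 TPM in young libraries. The gate gene Ptprc averaged 86.9 TPM in aged and 96.2 TPM in young libraries; in aged replicate 3 it was at 30.6 TPM, under Mbp at 73.7 TPM and Clu at 45.2 TPM. The TPM of some members depended on the transcript to which the reads had been assigned. The tables give a mean transcript length per gene and library, and among the 27 members with at least 10 counts in 2 or more libraries this length differed by over 1.5 times between libraries in 12. Gja1 had a length of 413 bases in aged replicate 3, where 298 counts gave 25.1 TPM, and of 3079 bases in aged replicate 1, where 122 counts gave 0.62 TPM. The Gjb6 reads of aged replicate 2 were assigned to a mean length of 401 bases and gave 16.8 TPM. Meg3 had a length of 849 bases in aged replicate 3 and 7331 to 14548 bases in the other libraries. Orders of genes by TPM therefore carry this assignment with them.

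Further genes of the same cell types, from lists of 40 neuron, 22 astrocyte and 21 oligodendrocyte genes, gave 0 calls. Of the 25 neuron genes tested 14 had fitted values below 0 and 11 above, with a median of -0.40, against -0.02 over all genes tested. Their summed level was 130, 237 and 216 CPM in aged libraries and 185, 226 and 246 CPM in young ones, with overlap. The 3 with the highest CPM were Basp1, a growth cone protein gene, at 33.2 to 126 CPM in aged and 16.2 to 49.4 CPM in young libraries, Pcp4, at 5.53 to 56.3 CPM in aged and 14.8 to 132 CPM in young libraries, and Rtn1, at 9.54 to 29.0 CPM in aged and 1.70 to 15.4 CPM in young libraries. Without overlap, 7 of the 40 were lower in aged libraries (Gria2, Scg2, Eno2, Chgb, Snhg11, Grin1 and Syn1, the last with 4 counts in all) and 1, the vesicle gene Vamp2, was higher. Grin1 and Syn1 were not tested, and Scg2, Eno2 and Chgb had no aged library over the filter's 0.330 CPM, so the count is not read against the share over all genes tested.

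Gria2, an AMPA receptor subunit gene, was at 1.99, 3.16 and 0.30 CPM in aged libraries, against 20.6, 10.4 and 10.99 CPM in young ones (log2 fold change -3.07 with a standard error of 1.60, edgeR adjusted p = 0.919). Scg2, a secretory granule protein gene, had 0 counts in all 3 aged libraries and 540, 303 and 23 counts in the young ones (edgeR adjusted p = 0.619). Eno2, the neuronal enolase gene, had 1, 0 and 0 counts in aged and 151, 40 and 106 counts in young libraries (edgeR adjusted p = 0.619). These genes and Vamp2, at 12.3 to 19.2 CPM in aged and 1.74 to 4.31 CPM in young libraries, were named after their values were seen.

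Among the further glial genes, values also went in both directions. Of 10 astrocyte genes tested, 6 had fitted values above 0 and 4 below (median 0.16). The highest CPM were those of Glul, the glutamine synthetase gene, at 144 to 261 CPM in aged and 119 to 265 CPM in young libraries, then Mt3 and S100b. Of 8 oligodendrocyte genes tested, 5 were above 0 and 3 below (median 0.35). The transferrin gene Trf led them, at 1278, 2033 and 1219 CPM in aged libraries against 787, 1076 and 766 CPM in young ones, without overlap (log2 fold change 0.71, SE 0.28, edgeR adjusted p = 0.808). Which cells made the Trf reads was not tested. Cryab, a small heat shock protein gene, was at 0 to 61.9 CPM in aged and 0.60 to 104 CPM in young libraries. The oligodendrocyte lineage factors Sox10, Olig2 and Myrf had 2, 10 and 9 counts over all 6 libraries, and the myelin lipid enzyme gene Ugt8a had 9. Other genes of the list had more reads: Olig1, a further lineage factor, had 104 counts, of which 98 were in young replicate 3, Nkx6-2 had 102 and Aspa, the aspartoacylase gene, 1539.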

How the data were processed

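RNA of sorted CAMs from 3 aged and 3 young libraries was sequenced. Per the submitters' processing notes, the tools were bcl2fastq 2.20, fastp, FastQC, Picard and DRAGEN, and the build mm10; what each tool did, and which annotation was counted, is not given in the sources used here. Per the file headers, the authors deposited an estimated count per gene (not scaled to depth), TPM (scaled for depth and effective length) and a mean transcript length. Estimated counts were rounded to whole numbers. Identifiers were matched to GENCODE M21 (35513 of 35598), keeping the identifier with the most reads per symbol.

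CPM used the library total, with the 3 libraries of a group as replicates. Counts were fitted with edgeR 4.0.16 in R 4.3.3 (filterByExpr, TMM, robust quasi-likelihood F test, two-sided), with Benjamini-Hochberg adjustment over 10661 genes. The fit was also run on simulated counts that gave every gene the same dispersion (spread between replicates). That run cannot show how the fit performs where genes differ in spread, as here. DESeq2 1.42.0, limma 3.58.1, other scalings and filters, a replicate block and leaving out each library were alternatives. Standard errors were taken as the size of the log2 fold change divided by the root of F. Named with values in each library were members with a mean of at least 10 CPM, called members and the 3 per class with most reads. The rule also named the 3 most abundant genes of the further neuron, astrocyte and oligodendrocyte lists, most of them given by range or without values. The others were named after their values were seen. The result of 1 gene that this rule names is not reported here. Members and lists were chosen with earlier results of these data known. Same-numbered libraries were checked for pairing. RefSeq windows were found for 23 of the 32 members.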

Additional observations from a re-analysis of the deposited data

How the results depend on the processing

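No member was called higher in any setting, and 1 (Meg3) was called lower by the DESeq2 Wald test alone. Over all genes, 1 was called higher and 0 lower; the counts were 117 and 41 with DESeq2, 51 and 11 without a low-count filter, 0 and 0 in limma-voom (where 559 and 377 had an unadjusted p under 0.05, beside 387 and 218 in edgeR), and 0 to 2 higher and 0 to 1 lower when a library was left out. Of 181 member values under other settings than leaving out a library, 7 changed sign: Snap25 (-0.43) to 0.41 in limma-voom, 0.19 in limma-trend on TPM and 0.066 with a replicate block, Slc1a2 (0.21) to -0.31 in limma-voom and -1.22 with the replicate block, and Nrgn to 0.079 and Mal to 0.43 in limma-trend. Of 138 values with a library left out, 11 changed sign, and the ranges were -3.20 to 0.66 for Nrgn, -4.66 to 0.18 for Nefl, -2.07 to 0.77 for Slc1a2, -0.67 to 1.32 for Clu, -0.65 to 2.25 for Mbp, -0.035 to 3.08 for Mobp and -6.03 to 2.94 for Mal. The cause was not tested. The log2 ratio of the summed neuron level, aged over young, was -1.999, -0.71 on TPM and -1.34 without Meg3. Members without overlap, 5 lower and 0 higher, were 4 lower on TPM, and 5 to 10 lower (10 without young replicate 1, 9 without young replicate 3) and 1 to 2 higher when a library was left out, as fewer libraries overlap less. The share over all genes was not taken on TPM or with a library left out, so these counts are not read as a result about the members. On TPM the median fitted value of all genes was 0.22, against -0.02 on counts. Without aged replicate 3, Slc1a2, Clu, Mbp, Mobp and Mal had the opposite sign. With the replicate block 1 gene was called higher and 0 lower, and 0 members were called. Deviations of same-numbered libraries correlated at -0.03 to 0.02 over the genes tested, which cannot show whether small sets of genes varied together. Low counts were common, with 1 to 3 counts in 26 of 192 values, and whether depth set them was not tested.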
